A study of Mus musculus with 75 samples.

Results

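Chrna3, Chrna4, Chrna5, Chrna7, Chrnb2 and Chrnb4 encode subunits of the neuronal nicotinic acetylcholine receptors. They were described here in RNA libraries of mouse enteric glial cells, the glia of the gut wall. The 6 genes were selected on their symbols, with earlier results of these counts in view, in which Chrna3 and Chrnb4 stood out between regions and plexuses of untreated mice. The measured values that led to the choice were therefore those of the untreated libraries, and for the members those contrasts are given as a description with no test. The 6 genes are 6 of the 21051 gene symbols counted in untreated mice and at 2 h, and of the 21076 counted at 24 h.

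Nicotinic receptors are pentameric cation channels that open when acetylcholine binds, and they carry fast excitatory transmission between enteric neurons. The α3 subunit (Chrna3) with β4 (Chrnb4) forms the core of the receptor of autonomic ganglia, and α5 (Chrna5) joins as an accessory subunit that binds no agonist without a partner. The β2 subunit (Chrnb2) pairs with α4 (Chrna4) in the main heteromeric receptor of the brain and also with α3 in ganglia. The α7 subunit (Chrna7) forms homomeric channels of high calcium permeability and is known from work on cholinergic control of inflammation.

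The series holds 75 libraries in 16 groups, made with Smart-seq2, a full-length cDNA method without molecular identifiers, from enteric glial cells of mice that carry a green fluorescent reporter. Untreated adult reporter mice gave 22 libraries: 6 of the small-intestinal myenteric plexus (between the muscle layers), 5 of the colonic myenteric plexus, 6 of the small-intestinal submucosal plexus (beneath the mucosa) and 5 of the colonic submucosal plexus. Reporter mice killed 2 h after an intraperitoneal injection of phosphate-buffered saline (PBS), or of 2 mg/kg lipopolysaccharide (LPS, a bacterial wall component), gave 16 myenteric libraries, 4 for each treatment and region. At 24 h after the same injections, 37 myenteric libraries came from reporter mice labelled Gpr37WT (called wild type here) or Gpr37-/-. Gpr37 encodes an orphan receptor of glia. Of the wild-type libraries of small intestine 6 followed PBS and 4 followed LPS, and of those of colon 4 followed PBS and 5 LPS. In Gpr37-/- mice the corresponding numbers were 4 and 5 for small intestine, and 5 and 4 for colon. Both sexes were in every group, every mouse carried the reporter, and how the cells were isolated is not given in the sources used here. The labels at 24 h hold numbers shared between the regions, taken here as the numbers of the mice. Nothing says that untreated or 2 h libraries came from separate animals, so there the p-values measure only the spread between these samples.

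Counts assigned to genes ran from 2547296 to 9002546 per untreated library, from 1990744 to 7883251 at 2 h and from 2882539 to 33283346 at 24 h. Levels are in CPM, counts per 1000000 assigned counts after scaling by TMM normalization factors. Gpr37 lay at 0 to 0.802 CPM in the 18 Gpr37-/- libraries and at 0 to 17.4 CPM, with a median of 6.50 CPM, in the 19 wild-type libraries. The sum of 5 Hox genes of the hindgut kept the regions apart in untreated mice and at 2 h, at 2.88 CPM or less in small intestine and 42.1 CPM or more in colon. At 24 h it reached at most 2.86 CPM in small intestine. Of 18 colonic libraries, the one labelled wild-type LPS colon mouse 5 lay within that range at 1.82 CPM, and Gpr37-/- PBS colon mouse 1 followed at 6.43 CPM. The glial markers were present in every group (10 of 10 detected), at summed medians of 8263 and 11592 CPM in the colonic and small-intestinal myenteric plexus of untreated mice, against 1964 and 1323 CPM in the submucosal plexus. In the submucosal libraries, 6 lymphocyte markers summed to medians of 23452 CPM in colon and 30700 CPM in small intestine, against 32.2 and 13.1 CPM in the myenteric plexus. Neuron markers were also present: 12 of them summed to a median of 1471 CPM (791 to 2762) in the small-intestinal myenteric plexus and 373 CPM (193 to 426) in the colonic one.

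The coordinates are those of GRCm38, the build named in the submitters' processing notes, with gene models of GENCODE M21. Chrna5 (chr9:54980880-55007779, plus strand), Chrna3 (chr9:55010111-55026562, minus strand) and Chrnb4 (chr9:55028154-55048779, minus strand) form 1 cluster. Chrnb2 lies at chr3:89746195-89764632, Chrna4 at chr2:181018380-181043546 and Chrna7 at chr7:63098692-63212569, all on the minus strand. The merged exons add to 3.126 kb for Chrna5, 5.265 kb for Chrna3, 3.723 kb for Chrnb4, 8.380 kb for Chrnb2, 5.022 kb for Chrna4 and 4.505 kb for Chrna7. In the GENCODE M21 models the exons of Chrnb2 share 1365 bases with exons of Adar, a gene for an RNA-editing enzyme, on the opposite strand. That is 16.3% of the exon length of Chrnb2. In RefSeq the spans of Chrnb2 and Adar overlap by only 8 bases. The RefSeq spans of Chrna3 and Chrna5 overlap by 1304 bases on opposite strands at their 3′ ends, while in GENCODE M21 they share no exon bases. The annotation behind the authors' counts, and whether strand was used, are not given in the sources used here. Reads from any shared bases therefore cannot be told apart.

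**Figure D1:**
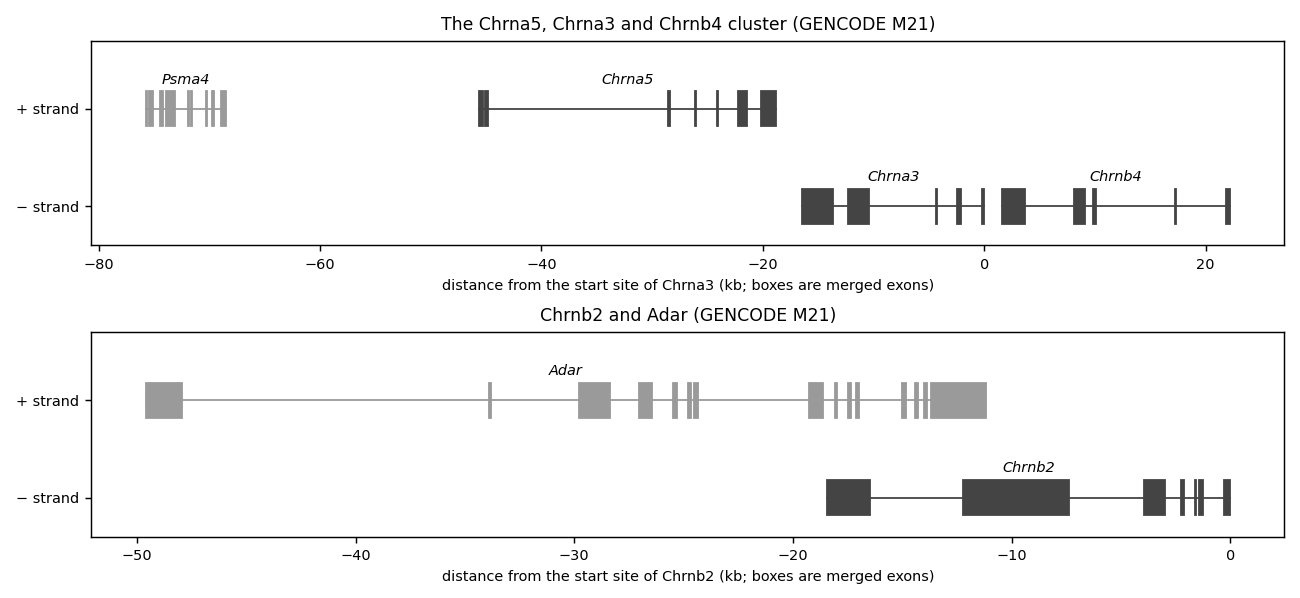
Exons (boxes) of the Chrna5, Chrna3 and Chrnb4 cluster with Psma4, a nearby proteasome gene, and of Chrnb2 with Adar, by strand and by distance in kb from the start of Chrna3 or Chrnb2 (GENCODE M21). The 3′ exons of Chrnb2 face those of Adar, with 1365 shared exon bases, while the 3 subunit genes of the cluster share no exon bases in this annotation.

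The stretches just upstream of Chrna3, the member with the largest fitted difference between regions in the untreated myenteric plexus, and of Chrnb2, the member with the steadiest level, are shown to set the sequence of a variable and a steady gene side by side. Each is the 250 bases before the RefSeq GRCm38.p6 start on the minus strand, written 5′ to 3′ (Chrna3 chr9:55026563-55026812, Chrnb2 chr3:89764633-89764882), with matches to the motifs searched in capitals.
Chrna3: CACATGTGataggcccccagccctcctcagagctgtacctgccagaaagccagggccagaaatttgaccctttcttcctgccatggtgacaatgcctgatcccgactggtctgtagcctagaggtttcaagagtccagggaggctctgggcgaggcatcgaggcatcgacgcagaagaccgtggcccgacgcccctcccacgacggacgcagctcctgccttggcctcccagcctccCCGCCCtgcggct
Chrnb2: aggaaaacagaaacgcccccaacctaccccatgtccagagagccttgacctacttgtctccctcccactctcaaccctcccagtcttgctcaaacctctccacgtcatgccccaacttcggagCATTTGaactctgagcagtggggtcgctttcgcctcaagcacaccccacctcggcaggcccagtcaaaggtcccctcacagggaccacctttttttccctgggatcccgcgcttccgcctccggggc
The motifs searched on both strands were the GC box GGGCGG, the E-box CANNTG, the SOX core ACAAAG and the TATA box TATAAA. In the Chrna3 stretch there were 1 GC box and 2 E-boxes that overlap each other, and in the Chrnb2 stretch there was 1 E-box. Neither stretch held the SOX core or the TATA box. Among 32851 stretches of the same length, 32.7% held the GC box, 66.2% the E-box, 16.5% the SOX core and 12.4% the TATA box, so each match is a common one. A match is only a match of letters.

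Over all 75 libraries Chrna3 ranged from 0 to 580 CPM, Chrnb4 from 0 to 231 CPM and Chrna5 from 0 to 41.3 CPM. Chrnb2 ranged from 0.200 to 35.3 CPM and was the only member with reads in every library. Chrna7 reached 12.7 CPM and was at 0 in 26 libraries. Chrna4 reached 17.8 CPM and was at 0 in 43 libraries, with more than 3 counts in 20. The filter on low counts passed Chrna3, Chrnb4 and Chrnb2 in untreated mice, all but Chrna4 at 2 h and all 6 at 24 h. Group means ran from 0.492 to 369 CPM for Chrna3, from 0.786 to 121 CPM for Chrnb4 and from 0.0599 to 21.2 CPM for Chrna5, while those of Chrnb2 stayed between 7.84 and 24.8 CPM.

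**Figure D2:**
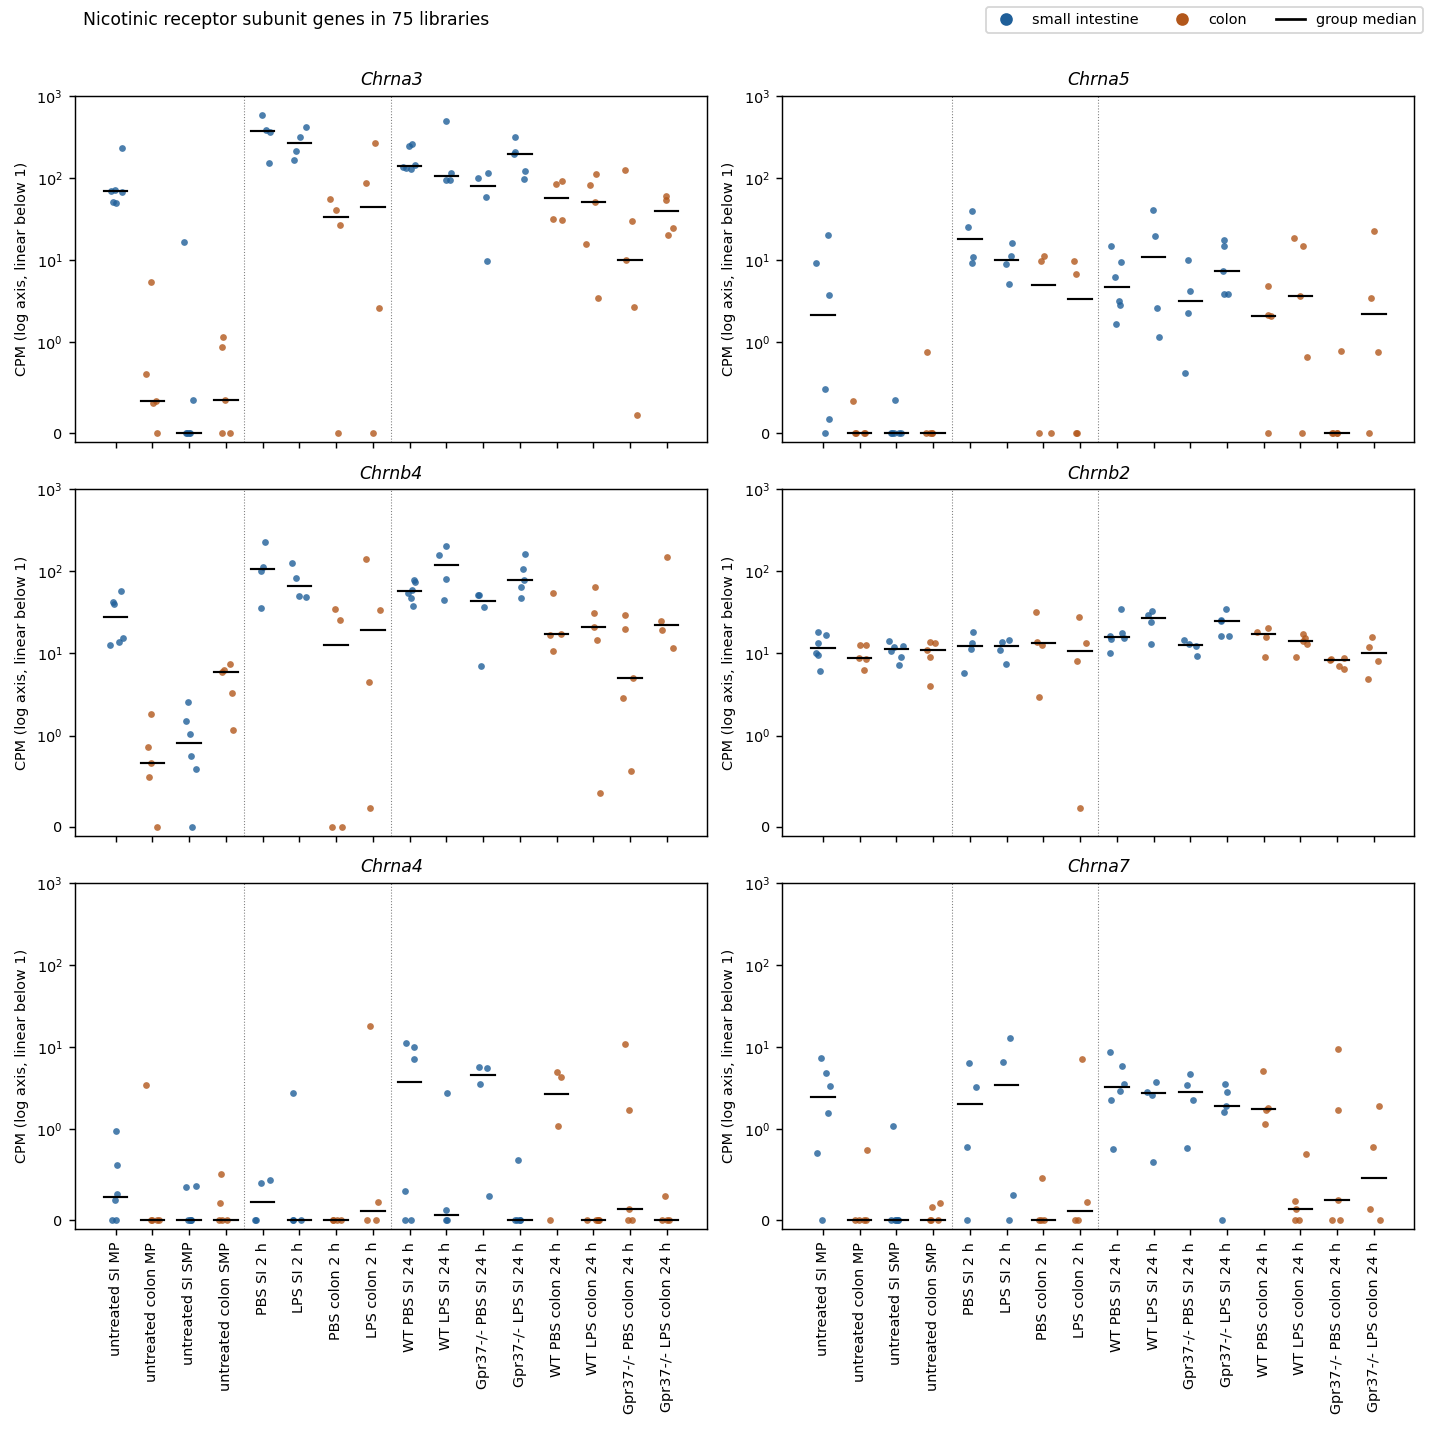
Level of each member in CPM (log axis, linear below 1) in every library (points) of the 16 groups, with the group median as a line, for small intestine (SI) and colon, myenteric (MP) and submucosal plexus (SMP). In untreated mice Chrna3 and Chrnb4 lie at 5.44 CPM or less in the colonic myenteric libraries, and Chrnb4 lies at 1.16 to 7.47 CPM in the colonic submucosal ones. Over all 16 groups Chrnb2 keeps group means of 7.84 to 24.8 CPM, and Chrna4 is mostly at 0 except after PBS at 24 h.

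Per kb of exon, the order of the levels changed between regions. In the untreated small-intestinal myenteric plexus Chrna3 led at a mean of 17.1 CPM per kb, followed by Chrnb4 at 8.13, Chrna5 at 1.79, Chrnb2 at 1.47, Chrna7 at 0.655 and Chrna4 at 0.0695 CPM per kb. In the untreated colonic myenteric plexus Chrnb2 led at 1.17 CPM per kb, with Chrna3 at 0.257 and Chrnb4 at 0.211 CPM per kb. Chrnb2 also led in the small-intestinal submucosal plexus, at 1.30 CPM per kb. In the colonic submucosal plexus Chrnb4 and Chrnb2 lay next to each other at 1.30 and 1.23 CPM per kb. After injection Chrna3 led in every group but 1, with its highest mean, 70.1 CPM per kb, after PBS in the small intestine at 2 h. The exception was Gpr37-/- LPS colon, where Chrnb4 led at 13.9 CPM per kb, and there 1 library of 4 lay at 150 CPM against 11.8 to 24.6 CPM in the others.

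In untreated mice, Chrna3, the ganglionic α subunit, was a transcript of the small-intestinal myenteric plexus. It lay there at 49.8, 67.1 and 70.4 CPM in males and at 231, 51.0 and 71.8 CPM in females. In the colonic myenteric plexus it lay at 0, 5.44 and 0.329 CPM in males and at 0.654 and 0.350 CPM in females. Every colonic library was below every small-intestinal one. The means were 1.35 ± 2.30 CPM (SD, n = 5) and 90.1 ± 69.5 CPM (SD, n = 6), a log2 fold change, colon minus small intestine, of -6.24 ± 1.43 (SE). Without the highest colonic library, male 2, it was -7.97.

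Chrnb4, the β subunit that partners α3, followed the same order in the myenteric plexus. It lay at 15.4, 39.9 and 42.5 CPM in small-intestinal males and at 57.0, 12.7 and 14.0 CPM in small-intestinal females. In the colonic myenteric plexus it lay at 0.870, 1.81 and 0.548 CPM in males and at 0 and 0.700 CPM in females. Again the groups did not overlap, and the log2 fold change was -5.31 ± 0.82 (SE). Of all genes tested, 1.96% had every colonic myenteric library below every small-intestinal one, and 3.19% passed an adjusted p of 0.05 in either direction. Chrnb2 differed little in the same comparison, at -0.33 ± 0.36 (SE).

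The accessory subunit Chrna5 and the α7 gene Chrna7 lay at low levels and were above 3 counts mainly in the small-intestinal myenteric plexus. There Chrna5 lay at 9.10, 0.490 and 0.151 CPM in males and at 20.0, 3.78 and 0 CPM in females, and at 0.888 CPM or less in all other untreated libraries. Chrna7 lay there at 0, 0.735 and 3.33 CPM in males and at 4.80, 1.56 and 7.28 CPM in females, and elsewhere at 1.08 CPM or less. Chrna4 stayed at 0.980 CPM or less except for 3.44 CPM in colonic myenteric female 2.

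In the small intestine, Chrna3 and Chrnb4 were both lower in submucosal than in myenteric libraries. In the small-intestinal submucosal plexus Chrna3 lay at 0, 0 and 0.360 CPM in males and at 0, 0 and 16.7 CPM in females, so that 1 library, female 3, held nearly all of its reads. The log2 fold change, submucosal minus myenteric, was -4.96 ± 1.21 (SE) in the small intestine, and -10.5 without that library. Chrnb4 lay there at 0.635, 0.778 and 0 CPM in males and at 1.05, 1.51 and 2.53 CPM in females, a log2 fold change of -4.73 ± 0.73 (SE). Both genes had every submucosal library below every myenteric one, as did 12.1% of all genes tested, and 43.5% of all genes passed the adjusted p in this comparison. Chrnb2 gave -0.18 ± 0.34 (SE).

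In the colon, Chrnb4 was higher in the submucosal plexus, at 3.33 and 5.89 CPM in males and at 1.16, 7.47 and 6.34 CPM in females. Its log2 fold change, submucosal minus myenteric, was 2.68 ± 0.76 (SE), though the groups overlapped, and 21.8% of all genes passed the adjusted p in this comparison. Chrna3 stayed low in the colonic submucosal plexus, at 0.370 and 0.949 CPM in males and at 0, 0 and 1.14 CPM in females. Its log2 fold change was -1.16 ± 1.51 (SE) and turned to 0.57 without colonic myenteric male 2. Against the small-intestinal submucosal plexus, the colonic one gave 2.10 ± 0.69 (SE) for Chrnb4 and -2.43 ± 1.38 (SE) for Chrna3, where 5.18% of all genes passed. The value of Chrna3 turned to 3.12 without small-intestinal female 3. The difference of the plexus differences between the regions was 7.41 ± 1.05 (SE) for Chrnb4 and 3.81 ± 1.95 (SE) for Chrna3, with 1.19% of all genes passing. For Chrna3 it was 9.41 without small-intestinal submucosal female 3 and 5.55 without colonic myenteric male 2.

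Neuron markers moved with these levels. Of the 12 neuron markers, 7 fell and 0 rose in the colonic against the small-intestinal myenteric plexus (edgeR, adjusted p under 0.05). Beside them, 1.53% of all genes were called lower. Per 1000 CPM of neuron markers, Chrna3 had a median of 47.5 CPM (35.2 to 90.7) in the small-intestinal myenteric plexus and of 1.76 CPM (0 to 12.8) in the colonic one. For Chrnb4 the same ratio was 19.2 and 2.43 CPM in the myenteric plexus of small intestine and colon, 11.4 CPM in the small-intestinal submucosal plexus, and highest in the colonic submucosal plexus at 44.9 CPM, where neuron markers summed to 58.4 to 145 CPM and Rbfox3 was at 0. The colonic submucosal libraries also held 6 epithelial markers at a summed median of 3284 CPM, against 99.1 CPM in the colonic myenteric ones, and the lymphocyte markers given above. The part of other cells in the Chrnb4 level was not tested. In bulk libraries, fewer cells of a type and less RNA per cell cannot be told apart.

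**Figure D3:**
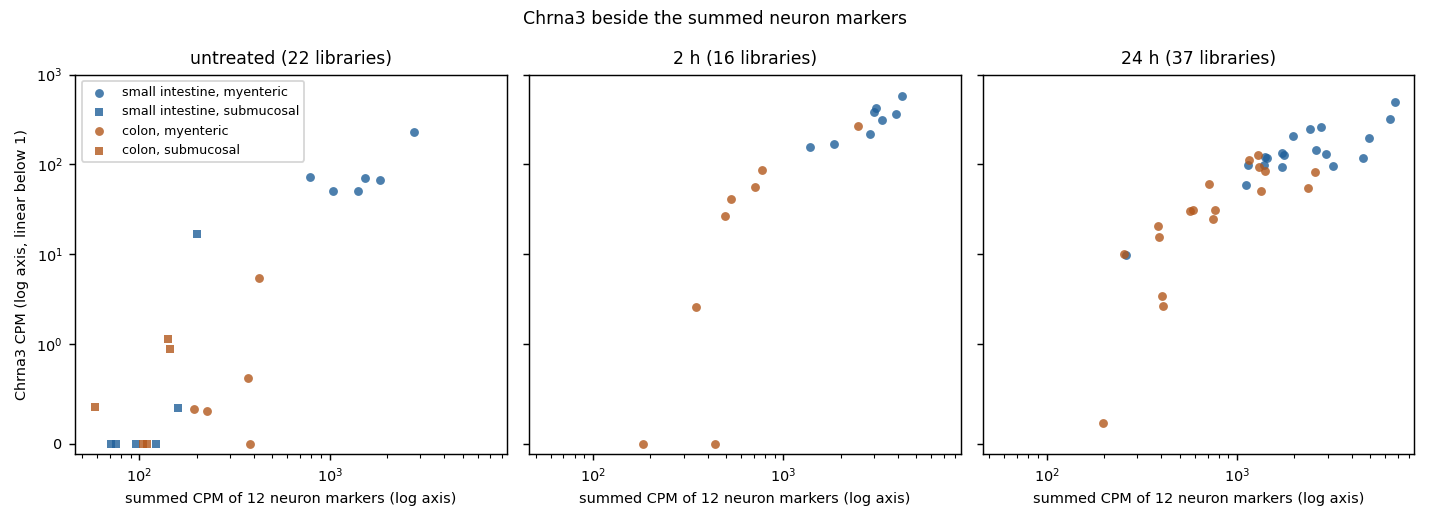
Chrna3 level in CPM (log axis, linear below 1) against the summed CPM of 12 neuron markers (log axis) in every library, by experiment, with colour for region and shape for plexus. Untreated colonic myenteric libraries reach sums of up to 426 CPM with Chrna3 at 5.44 CPM or less. At 2 h LPS colon male 4 also has Chrna3 at 0.

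Other genes of acetylcholine signalling fell together with Chrna3 and Chrnb4 in the untreated colonic myenteric plexus, in tests of the same fit. Of 7 genes of acetylcholine synthesis, transport and breakdown that were tested, 3 were lower in colon and 0 higher. Of all genes, 1.53% were called lower and 1.66% higher. The lists were chosen with earlier results of these data known. The p-values here and in the next paragraph are therefore descriptive and no independent test. Slc18a3, the vesicular acetylcholine transporter, lay at 1.30 ± 1.94 CPM against 45.9 ± 11.7 CPM (SD, n = 5 and 6), with edgeR adjusted p = 0.0227. Slc5a7, the choline transporter, lay at 2.44 CPM against 37.9 CPM in the mean (edgeR adjusted p = 0.0201). Ache, acetylcholinesterase, lay at 7.51 ± 3.07 CPM against 65.2 ± 46.1 CPM (edgeR adjusted p = 0.0177). Chrnb1, the β subunit of the muscle receptor and the only other nicotinic subunit that passed the filter, went the other way. It lay at 35.1 ± 11.2 CPM in colon and 14.4 ± 5.51 CPM in small intestine (log2 fold change 1.29 ± 0.32, edgeR adjusted p = 0.0306), in libraries whose 6 smooth muscle markers summed to medians of 14176 and 2771 CPM. Of 9 chaperones and binding proteins of nicotinic receptors 0 passed with edgeR, 0 unadjusted and 0 by DESeq2. Of 5 transcription factors of autonomic neurons 0 passed with edgeR, 3 unadjusted and 3 by DESeq2.

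In the small-intestinal submucosal against the myenteric plexus, where 43.5% of all genes were called, 5 of the acetylcholine genes fell and 0 rose. Of the 9 chaperones and binding proteins, 6 fell and 1 rose. Ric3, a chaperone of nicotinic receptors, lay at 0.728 ± 0.995 CPM in the submucosal and 23.4 ± 7.39 CPM in the myenteric plexus (edgeR adjusted p = 4.96e-05). Ly6e, a surface protein of many cell types, lay at 1.82 ± 0.31 higher on the log2 scale in the submucosal plexus (edgeR adjusted p = 8.09e-05). All 10 glial markers and 11 of the neuron markers fell in the same comparison, while the lymphocyte sum was 30700 CPM against 13.1 CPM. Their part in the values of the listed genes was not tested.

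At 2 h after injection, LPS and PBS gave overlapping levels of every member that could be tested. The libraries at 2 h were fitted on their own, and levels were not compared across experiments. After PBS in the small intestine Chrna3 lay at 580 and 154 CPM in females 1 and 3 and at 360 and 383 CPM in males 2 and 4. After LPS it lay there at 315, 168, 215 and 423 CPM in the same order. The groups overlapped, with a log2 fold change, LPS minus PBS, of -0.40 ± 1.19 (SE, edgeR adjusted p = 1). In the colon Chrna3 lay at 40.6, 0, 56.0 and 26.4 CPM after PBS and at 270, 86.3, 2.61 and 0 CPM after LPS in the same order. That difference was 1.55 ± 1.23 (SE, edgeR adjusted p = 0.984), with libraries at 0 in both groups.

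No member passed the test for LPS at 2 h. In the small intestine 0 of 5 members passed at an unadjusted p of 0.05 by edgeR and 0 by DESeq2, beside 1.1% of all genes called. In the colon the same counts were 0 and 0, beside 0.778% of all genes called. For the difference of the LPS effect between the regions, 0 of 5 passed unadjusted by edgeR and 0 by DESeq2, and 0% of all genes were called. The SE of the members' log2 fold changes for LPS lay between 0.95 and 2.15. At this spread changes well above the SE could also fail to pass. In the same fit -2.61 ± 0.89 (SE) for Chrna3 between the regions did not pass (edgeR adjusted p = 0.123). Chrna4 was at 0 in all 4 PBS colon libraries and reached 80 counts (17.8 CPM) in LPS colon female 1. Against a floor of 3 counts per library the LPS mean was at least 5.29-fold higher, and this rested on that single library.

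Colon was again the lower region for Chrna3 at 2 h. Over both treatments the mean was 60.3 ± 90.2 CPM in colon and 325 ± 144 CPM in small intestine (SD, n = 8 each), a log2 fold change averaged over the treatments of -2.61 ± 0.89 (SE, edgeR adjusted p = 0.123). It passed without LPS colon female 1 (-3.43, edgeR adjusted p = 0.0491). Chrnb4 gave -1.89 ± 0.95 (SE, edgeR adjusted p = 0.347), Chrna5 -1.66 ± 1.09 (SE, edgeR adjusted p = 0.526) and Chrna7 -2.77 ± 1.43 (SE, edgeR adjusted p = 0.368). Chrnb2 gave 0.21 ± 0.67 (SE, edgeR adjusted p = 0.951). Thus 0 of 5 members passed, 1 at an unadjusted p of 0.05 by edgeR and 0 by DESeq2, beside 3.84% of all genes called. After PBS alone 0 of 5 passed, 2 unadjusted by edgeR and 0 by DESeq2 (0.221% of all genes called), and after LPS alone 0 passed, 0 unadjusted and 0 by DESeq2 (0.061% called). After PBS every colonic library lay below every small-intestinal one for Chrna3 and Chrnb4, as for 4.95% of all genes tested.

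Among the other genes in the colon against the small intestine at 2 h, Slc18a3 lay at 19.3 ± 34.9 CPM against 158 ± 65.4 CPM (edgeR adjusted p = 0.00692). Slc5a7 lay at 8.92 ± 17.3 CPM against 104 ± 50.7 CPM (edgeR adjusted p = 0.0115). Chat, the enzyme that makes acetylcholine, lay at 3.51 ± 6.73 CPM against 15.2 ± 7.68 CPM (edgeR adjusted p = 0.0279). Of the neuron markers 8 were lower in colon and 0 higher. For LPS at 2 h 0 of the 7 acetylcholine genes passed with edgeR in either region, 0 unadjusted and 0 by DESeq2 in small intestine, 3 unadjusted and 2 by DESeq2 in colon.

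**Figure D4:**
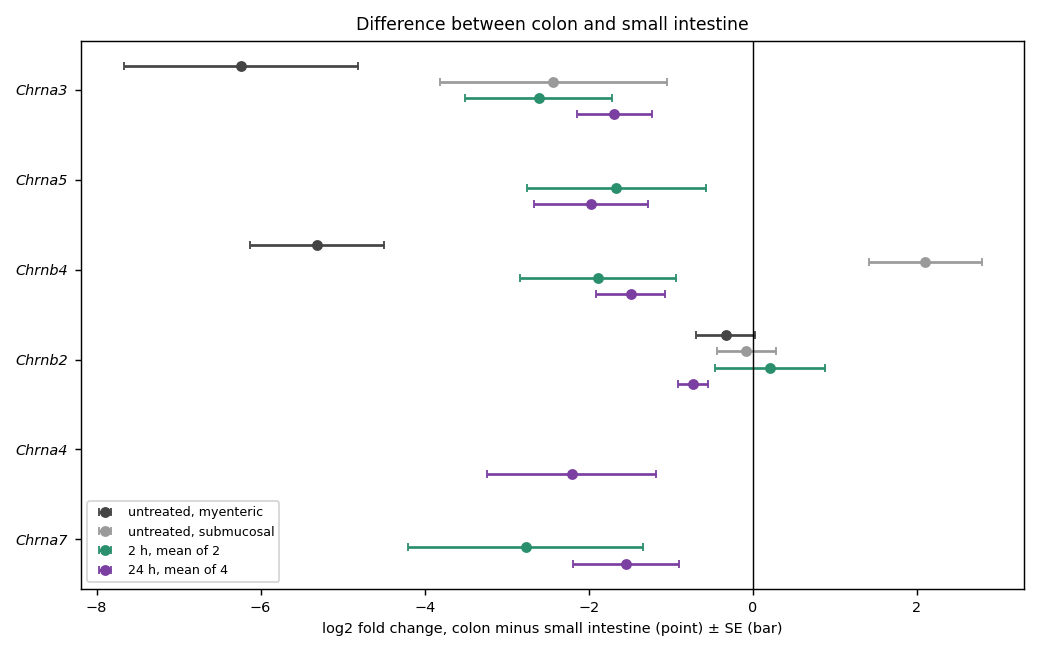
Log2 fold change of each member, colon minus small intestine (point) with its SE (bar), in the untreated myenteric and submucosal plexus, at 2 h (mean of both treatments) and at 24 h (mean of 4 groups), for members that passed the filter on low counts. Chrna3, Chrna5 and Chrna7 lie below 0 wherever they were fitted, Chrnb4 lies below 0 in the myenteric plexus and at 2.10 in the submucosal one, and Chrnb2 lies below 0 by more than its SE only at 24 h.

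At 24 h Chrna3, Chrnb4 and Chrnb2 were called lower in the colon over the 4 pairs of groups. These calls were lost with the mouse as a replicate block and held with limma voom and the mouse as a correlated block. Both outcomes are given with the comparison within mice. In wild-type PBS mice Chrna3 lay at 128 to 257 CPM, with a median of 140 CPM, in 6 small-intestinal libraries, and at 92.2, 30.9, 83.8 and 31.3 CPM in the colon. In wild-type LPS mice it lay at 116, 494, 95.8 and 93.4 CPM in the small intestine and at 15.7, 50.7, 111, 3.41 and 81.9 CPM in the colon. In Gpr37-/- PBS mice it lay at 99.1, 116, 58.6 and 9.66 CPM in the small intestine and at 10.1, 29.9, 2.67, 0.205 and 127 CPM in the colon. In Gpr37-/- LPS mice it lay at 205, 97.7, 316, 194 and 121 CPM in the small intestine and at 60.4, 24.9, 53.9 and 20.4 CPM in the colon. The regions did not overlap in wild-type PBS and Gpr37-/- LPS mice and overlapped in the other 2 pairs of groups. Of all genes tested, 2.96% in wild-type PBS and 2.21% in Gpr37-/- LPS mice had every colonic library below every small-intestinal one. Averaged over the 4 pairs of groups, the log2 fold change of Chrna3 was -1.69 ± 0.46 (SE, edgeR adjusted p = 0.0182), with 46.1 ± 38.9 CPM in 18 colonic and 161 ± 109 CPM in 19 small-intestinal libraries (SD).

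Chrnb4 fell in the colon with Chrna3, at 27.5 ± 35.0 CPM against 76.2 ± 49.4 CPM (log2 fold change -1.49 ± 0.42, edgeR adjusted p = 0.0238). Chrnb2 fell by less, at 11.8 ± 4.59 CPM against 19.8 ± 8.40 CPM (log2 fold change -0.73 ± 0.18, edgeR adjusted p = 0.0101). Chrna5 (-1.97 ± 0.69, edgeR adjusted p = 0.0783), Chrna7 (-1.55 ± 0.64, edgeR adjusted p = 0.153) and Chrna4 (-2.21 ± 1.03, edgeR adjusted p = 0.220) had negative values that did not pass. Chrna5 passed with the mouse numbers as a covariate (-2.62, edgeR adjusted p = 0.0071), without Gpr37-/- PBS colon mouse 7 (-2.84, edgeR adjusted p = 0.0164) and without Gpr37-/- LPS colon mouse 2 (-2.51, edgeR adjusted p = 0.0214). Chrna7 passed without Gpr37-/- PBS colon mouse 12 (-2.08, edgeR adjusted p = 0.0367). The value of Chrna4 comes from a fit with 1 group at 0 and is no bound. Without the 2 colonic libraries of low Hox level the calls held, at -1.52 for Chrna3, -1.41 for Chrnb4 and -0.72 for Chrnb2 (edgeR adjusted p = 0.0198, 0.0403 and 0.0147). Thus 3 of 6 members were called lower, beside 5.16% of all genes called lower and 7.72% called in either direction. In each pair of groups alone, 0 of 6 members passed with edgeR. In wild-type PBS mice 0 passed unadjusted and 0 by DESeq2 (0.141% of all genes called), and in wild-type LPS mice 5 passed unadjusted and 0 by DESeq2 (0.262% called). In Gpr37-/- PBS mice 1 passed unadjusted and 0 by DESeq2 (0.0805% called), and in Gpr37-/- LPS mice 2 passed unadjusted and 1 by DESeq2 (0.0738% called). These shares are at the adjusted p and are no background for the unadjusted counts.

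By the numbers in the labels, both regions of the same mouse were sequenced for 15 mice, which gives the comparison within animals. Chrna3 was lower in the colon in 14 of the 15, with medians of 31.3 CPM in colon and 116 CPM in small intestine. Chrna5 and Chrna7 were also lower in 14 of 15, Chrnb4 in 13, Chrnb2 in 12 and Chrna4 in 9, with 4 mice equal. With the mouse as a replicate block, on the 30 libraries of these mice, 0 of the 3 calls held at an adjusted p of 0.05. Chrna3 gave -1.94 ± 0.55 (SE, edgeR adjusted p = 0.0591), Chrnb4 -2.10 ± 0.59 (SE, edgeR adjusted p = 0.0534) and Chrnb2 -0.60 ± 0.23 (SE, edgeR adjusted p = 0.161). The values of Chrna3 and Chrnb4 were thus somewhat larger within mice, with fewer libraries. Chrnb2 also lost its call in mice numbered 11 and above alone (-0.57, edgeR adjusted p = 0.098). With limma voom and the mouse as a correlated block, on all 37 libraries, the 3 calls held. There Chrna3 gave -2.37 ± 0.43 (SE, limma adjusted p = 0.000292) and Chrnb4 -2.22 ± 0.41 (SE, limma adjusted p = 0.000318). Chrnb2 gave -0.70 ± 0.18 (SE, limma adjusted p = 0.00817) in that fit.

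Adar, whose exons share bases with Chrnb2 in GENCODE M21, was also called lower in the colon. It lay at 30.7 ± 10.3 CPM in colon and 44.3 ± 15.4 CPM in small intestine (log2 fold change -0.50 ± 0.16, edgeR adjusted p = 0.0485). The call was lost with the mouse as a replicate block (adjusted p = 0.0762), with no filter on low counts (adjusted p = 0.0561) and in mice numbered 11 and above alone (adjusted p = 0.0604), all with edgeR. Over the 37 libraries at 24 h it was the gene whose log2 CPM was most like that of Chrnb2 (Pearson r 0.75). The share of Adar reads in the Chrnb2 counts was not tested.

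At 24 h the colon also had lower levels of other cholinergic genes. Of the acetylcholine genes 3 fell and 0 rose. Slc18a3 lay at 21.9 ± 27.3 CPM against 108 ± 87.7 CPM (log2 fold change -2.63 ± 0.49, edgeR adjusted p = 0.000813). Slc5a7 lay at 5.92 ± 7.46 CPM against 34.9 ± 21.0 CPM (edgeR adjusted p = 0.00132). Chrm1, a muscarinic receptor gene, lay at 2.54 ± 3.31 CPM against 14.7 ± 9.80 CPM (edgeR adjusted p = 0.00719). Of the 12 neuron markers 9 fell and 0 rose. Per 1000 CPM of neuron markers, Chrna3 had group medians of 37.9 to 85.8 CPM over the 8 groups at 24 h. In wild-type PBS mice the ratio was 75.1 CPM (44.7 to 101) in small intestine and 56.3 CPM (41.1 to 70.5) in colon, ranges that overlapped.

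LPS at 24 h moved the members in different directions. Averaged over the 4 pairs of groups, Chrna4 fell, and Chrna5 and Chrnb4 rose, so 1 member was called lower and 2 higher. The calls of Chrna5 and Chrnb4 were lost with the mouse numbers as a covariate (edgeR adjusted p = 0.363 and 0.302) and with limma voom and the mouse as a correlated block (limma adjusted p = 0.100 and 0.0692), and that of Chrna4 held in both. The background was large: 24.4% of all genes were called, 11.5% higher and 12.9% lower. Chrna3, the most abundant member per kb in most groups, gave 0.42 ± 0.44 (SE, edgeR adjusted p = 0.544). Chrnb2 gave 0.39 ± 0.18 (SE, edgeR adjusted p = 0.118), while Adar passed at 0.52 ± 0.16 (SE, edgeR adjusted p = 0.0153). Chrna7 gave -1.62 ± 0.65 (SE, edgeR adjusted p = 0.0652), with 1.31 ± 1.33 CPM after LPS and 2.96 ± 2.72 CPM after PBS, and passed with DESeq2 (-1.65, adjusted p = 0.0214). With edgeR it passed without wild-type LPS colon mouse 13 (-1.87), Gpr37-/- PBS colon mouse 1 (-1.70) or mouse 20 (-1.65), or Gpr37-/- LPS colon mouse 2 (-1.88). Chrnb2 passed without wild-type PBS small intestine mouse 14 (0.51, edgeR adjusted p = 0.0283) or wild-type LPS small intestine mouse 13 (0.48, edgeR adjusted p = 0.0447).

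Chrna4, the α subunit that pairs with β2 in the brain, had more than 3 counts in 12 of 19 PBS libraries and in 2 of 18 LPS libraries. In wild-type PBS mice it lay at 0 to 11.2 CPM, with a median of 3.69 CPM, in the small intestine, and at 1.09, 4.99, 0 and 4.24 CPM in the colon. In wild-type LPS mice it lay at 0, 0, 0.106 and 2.77 CPM in the small intestine and at 0 in all 5 colonic libraries. In Gpr37-/- PBS mice it lay at 5.65, 5.50, 3.55 and 0.265 CPM in the small intestine and at 10.9, 1.69, 0.121, 0 and 0 CPM in the colon. In Gpr37-/- LPS mice only 2 of 9 libraries had any reads, at 0.660 CPM in the small intestine and 0.268 CPM in the colon. Libraries at 0 occurred after PBS too, so the treatments overlapped, but all the libraries at 3 CPM or more were PBS libraries. The mean was 3.505 ± 3.96 CPM after PBS and 0.212 ± 0.660 CPM after LPS, a ratio of 16.6. The fitted log2 fold change was -5.02 ± 1.14 (SE, edgeR adjusted p = 0.00168). Its size depends on the prior count because the wild-type LPS colon group was at 0, where, against a floor of 3 counts per library, the level was at least 3.72-fold lower than after PBS. The call held without each library in turn. The fit took the 2 libraries of a mouse as independent. With limma voom and the mouse as a correlated block Chrna4 gave -2.70 ± 0.93 (SE, limma adjusted p = 0.0294). Chrna4 passed the filter on low counts through its PBS libraries. With no filter it gave -4.99 ± 1.14 (SE, edgeR adjusted p = 0.00209).

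Chrna5, the accessory subunit, lay at 9.83 ± 11.0 CPM after LPS and at 3.42 ± 4.07 CPM after PBS (log2 fold change 2.42 ± 0.70, edgeR adjusted p = 0.0108). Chrnb4 lay at 71.4 ± 61.0 CPM after LPS and at 34.6 ± 24.6 CPM after PBS (log2 fold change 1.15 ± 0.41, edgeR adjusted p = 0.0390). The call of Chrna5 held without the 2 colonic libraries of low Hox level (2.39, edgeR adjusted p = 0.015) and that of Chrnb4 did not (1.14, edgeR adjusted p = 0.051). Chrnb4 also lost it without any of 11 single libraries: after LPS, wild-type small intestine mouse 3 or 8, wild-type colon mouse 8, Gpr37-/- small intestine mouse 6 or 10 and Gpr37-/- colon mouse 2, and after PBS, wild-type colon mouse 19, 22 or 24, Gpr37-/- small intestine mouse 20 and Gpr37-/- colon mouse 1. Its lowest value among these was 0.79, without Gpr37-/- LPS colon mouse 2 (edgeR adjusted p = 0.148). Both differences followed the numbers of the mice. Among 12 libraries of mice numbered 10 and below, Chrna5 lay at 3.64 to 41.3 CPM after LPS (8 libraries) and at 0 to 1.68 CPM after PBS (4 libraries). The share of all genes without overlap in these libraries was not computed. Among 25 libraries of mice numbered 11 and above, Chrna5 lay at 0 to 7.34 CPM after LPS (10 libraries) and at 0 to 14.6 CPM after PBS (15 libraries). Chrnb4 had medians of 129 and 18.3 CPM after LPS and PBS in the lower-numbered mice, and of 37.7 and 38.0 CPM in the higher-numbered ones.

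With the numbers as a covariate Chrna5 gave 0.89 ± 0.64 (SE, edgeR adjusted p = 0.363) and Chrnb4 0.65 ± 0.42 (SE, edgeR adjusted p = 0.302). In mice numbered 11 and above alone, Chrna5 gave 0.72 ± 0.58 (SE, edgeR adjusted p = 0.395) and Chrnb4 0.33 ± 0.44 (SE, edgeR adjusted p = 0.638). In mice numbered 10 and below alone, which held no wild-type PBS colon library, Chrna5 gave 4.87 ± 1.35 (SE, edgeR adjusted p = 0.139) and Chrnb4 3.10 ± 0.72 (SE, edgeR adjusted p = 0.0885). The labels do not say what sets the lower-numbered mice apart from the higher-numbered ones. Neuron markers divided in the same way: their sum had a median of 3587 CPM after LPS and 850 CPM after PBS in the lower-numbered mice, and of 1238 and 1379 CPM in the higher-numbered ones. The glial sum was 2182 CPM after LPS and 12548 CPM after PBS in the lower-numbered mice, and 3287 and 3899 CPM in the higher-numbered ones. Their part in the Chrna5 and Chrnb4 values was not tested.

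For Chrna4 the division went the other way, with the reads in the higher-numbered mice. Of those, 11 of 15 PBS and 2 of 10 LPS libraries had more than 3 counts, against 1 of 4 PBS and 0 of 8 LPS libraries of the lower-numbered ones. In mice numbered 11 and above alone Chrna4 gave -5.59 ± 1.55 (SE, edgeR adjusted p = 0.013), and in the lower-numbered mice -1.98 ± 1.85 (SE, edgeR adjusted p = 0.697).

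**Figure D5:**
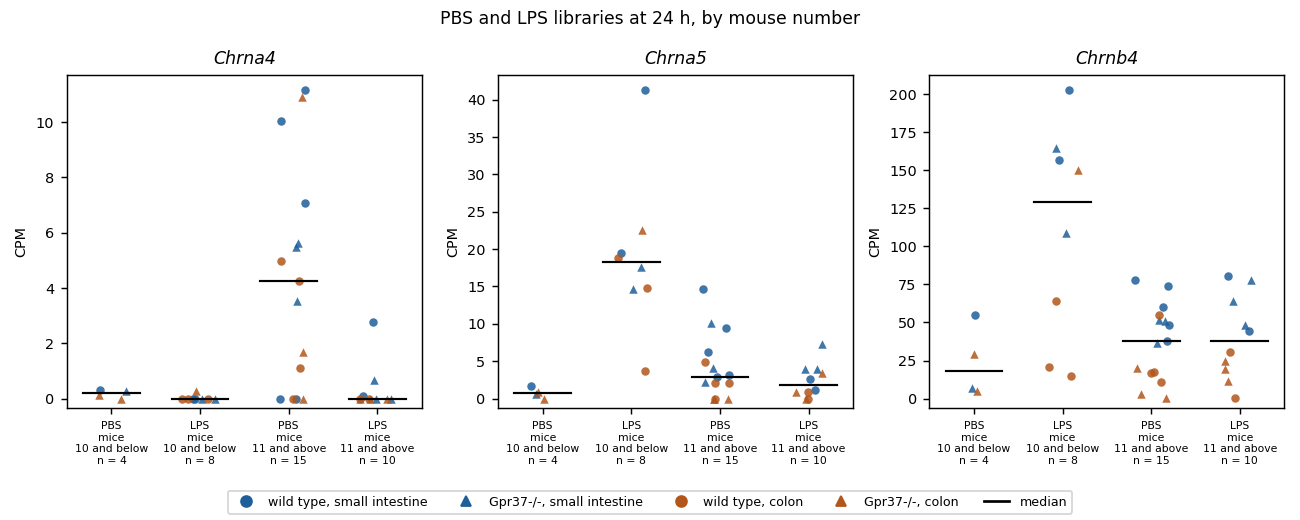
Level in CPM of Chrna4, Chrna5 and Chrnb4 in every library at 24 h (points, with colour for region and shape for genotype), by treatment and by mouse number, with medians as lines. Chrna4 is above 3 CPM only after PBS in mice numbered 11 and above, while the LPS libraries with high Chrna5 (up to 41.3 CPM) and Chrnb4 (up to 203 CPM) are those of mice numbered 10 and below.

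Within single pairs of groups no member passed with edgeR for LPS at 24 h. In wild-type small intestine 0 of 6 passed unadjusted and 0 by DESeq2 (7.17% of all genes called). In wild-type colon 2 passed unadjusted and 1 by DESeq2 (7.96% called), the latter being Chrna7 (-3.70, DESeq2 adjusted p = 0.0365), whose 5 LPS libraries at 0.728 CPM or less all lay below the 4 PBS libraries at 1.16 CPM or more, as did the groups for 9.13% of all genes. In Gpr37-/- small intestine 2 passed unadjusted and 0 by DESeq2 (0.718% called). There Chrnb2 lay at 16.5, 16.1, 25.4, 35.3 and 24.9 CPM after LPS, all above the PBS libraries at 12.3, 13.0, 14.7 and 9.39 CPM, with 0.93 ± 0.37 (SE, edgeR adjusted p = 0.283), and 3.09% of all genes had such groups. In Gpr37-/- colon 3 passed unadjusted and 1 by DESeq2 (0.718% called). That was Chrna5, at 3.46, 0.889, 22.5 and 0 CPM after LPS and with reads in 1 of 5 libraries after PBS (5.47, DESeq2 adjusted p = 0.00711). With edgeR it passed without Gpr37-/- PBS colon mouse 7, the only PBS library with reads (adjusted p = 0.0477).

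Among the related genes, 4 of 12 neuron markers rose and 0 fell with LPS at 24 h, and 0 passed with the mouse numbers as a covariate or in mice numbered 11 and above alone. Slc18a3 rose by 1.82 ± 0.47 on the log2 scale (edgeR adjusted p = 0.0047), at 92.1 ± 98.9 CPM after LPS and 41.1 ± 39.9 CPM after PBS. With the mouse numbers as a covariate 0 of the acetylcholine genes were called higher and 1 lower. Of the chaperones and binding proteins 3 fell and 0 rose, all of them of the Ly6/uPAR family of toxin-like proteins. Lypd6 lay at 2.47 ± 4.28 CPM after LPS and 5.60 ± 7.01 CPM after PBS (edgeR adjusted p = 0.00156). Lypd6b lay at 0.876 ± 2.34 CPM and 3.09 ± 2.79 CPM (edgeR adjusted p = 0.00668). Lynx1 lay at 18.7 ± 10.2 CPM and 38.8 ± 14.9 CPM (edgeR adjusted p = 0.00874). Of the glial markers 1 rose and 5 fell. Psma4, the proteasome gene near the cluster, rose by 0.49 ± 0.09 on the log2 scale (edgeR adjusted p = 0.000121).

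Loss of Gpr37 changed no member at a level that passed the test. Averaged over the 4 pairs of groups 0 of 6 members passed with edgeR, 1 unadjusted and 0 by DESeq2, beside 0.0671% of all genes called. Chrnb2 was that 1, at 13.8 ± 7.89 CPM in 18 Gpr37-/- and 17.996 ± 7.45 CPM in 19 wild-type libraries (log2 fold change -0.52 ± 0.18, edgeR adjusted p = 0.260). Chrna5 gave -1.36 ± 0.68 (SE, edgeR adjusted p = 0.468), Chrna3 -0.65 ± 0.45 (SE, edgeR adjusted p = 0.627) and Chrnb4 -0.31 ± 0.41 (SE, edgeR adjusted p = 0.849). In PBS colon 2 of 6 members passed unadjusted and 0 by DESeq2. There 0% of all genes were called at the adjusted p, which is no background for the unadjusted count. Chrnb2 lay there at 8.31, 8.65, 6.43, 7.04 and 8.79 CPM in Gpr37-/- mice and at 16.0, 8.96, 18.3 and 20.4 CPM in wild-type mice, groups that did not overlap (edgeR adjusted p = 1), and 0.866% of all genes were lower without overlap. In PBS small intestine (0% of all genes called), LPS small intestine (0.0134% called) and LPS colon (0.429% called) 0 members passed unadjusted and 0 by DESeq2. The test of a difference of the LPS effect between genotypes called 0 of 6 members in small intestine and 0 of 6 in colon, with 0 unadjusted, 0 by DESeq2 and 0% of all genes called in each. The error of that difference was large, as in 2.07 ± 1.17 (SE, edgeR adjusted p = 0.448) for Chrnb4 in the colon.

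The genes whose log2 CPM was most like that of Chrna3 were Slc10a4, Slc7a14 and Tubb3 over the 22 untreated libraries (Pearson r 0.98, 0.94 and 0.92), and Elavl4, Slc10a4 and Snap25 over the 37 libraries at 24 h (0.95, 0.94 and 0.92). For Chrnb4 they were Cds2, Tmem179 and Snx1 in untreated mice (0.83, 0.80 and 0.80) and Syt4, Syt1 and Stmn3 at 24 h (0.92, 0.89 and 0.88). For Chrna5 at 24 h they were Resp18, Tubb3 and Asic2 (0.84, 0.83 and 0.82). Those of Chrnb2 were Sphk2, Adar and Ddx58 in untreated mice (0.75, 0.67 and 0.66) and Adar, Fbxo2 and Lhfpl5 at 24 h (0.75, 0.69 and 0.69). Those of Chrna7 at 24 h were Rgmb, Parva and Dipk2a (0.72, 0.71 and 0.69), and those of Chrna4 were Hacd4, Itga11 and Adra2b (0.65, 0.64 and 0.64). Between members, Chrna3 and Chrnb4 had r 0.81 in untreated mice and 0.79 at 24 h, and Chrna3 and Chrna4 had r 0.07 at 24 h. The libraries of each experiment share regions and treatments, so these are descriptions across libraries, not tests.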

How the data were processed

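The authors deposited tables of whole-number read counts per gene symbol for 75 libraries. Per the submitters' processing notes, Trim Galore 0.4.4, STAR 2.5.3, DESeq2 and GRCm38 were used. The counter, annotation and strand setting are not given in the sources used here. Groups came from the labels. No 2 of 143 replicate pairs were identical. The members and lists were chosen with earlier results of these data known, and Adar was added after the counts were seen. Some genes of the lists are not reported here.

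Each experiment was fitted on its own with edgeR 4.0.16 in R 4.3.3 (filterByExpr, TMM, all groups in 1 quasi-likelihood fit, two-sided, Benjamini-Hochberg over the 14090, 13107 and 14903 genes tested in untreated mice, at 2 h and at 24 h). The SE is the log2 fold change over the square root of F. Shares of all genes called are at an edgeR adjusted p under 0.05 throughout. The shares of all genes passing unadjusted are not given. The fit was tested on simulated data. DESeq2 1.42.0 and limma 3.58.1 were alternatives, beside RLE size factors, no filter, sex, the mouse numbers, a replicate block and leaving out libraries.

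At 24 h the numbers in the labels were taken as those of the mice, so region contrasts are paired for mice with both regions. The main fit took the 2 libraries of a mouse as independent, also for the LPS and genotype contrasts. Deviations of the 2 libraries of a mouse correlated at -0.0443 to 0.237. Further genes named were the called ones of smallest p, up to 3 per list and contrast, and the 3 most like each member among genes of average log2 CPM 3 or more (prior count 2).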

Additional observations from a re-analysis of the deposited data

Results flagged for a closer look

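In 12 of 79 member groups of 4 to 6 libraries, 1 library lay far from the others by Dixon's criterion on the log2 scale. For normally distributed values chance gives about 5% of groups. Where all other libraries are at 0, any library with reads is flagged, so 12 of 79 cannot be set against that rate. Such groups were those of Chrna7 in PBS colon at 2 h (2 counts) and, at 24 h, of Chrna5 in Gpr37-/- PBS colon (4 counts). So were those of Chrna4 in Gpr37-/- LPS small intestine (11 counts) and colon (1 count). Chrna3 had 4 of them: 230.5 CPM in untreated small-intestinal myenteric female 1, 16.7 CPM in untreated small-intestinal submucosal female 3, 0 CPM in PBS colon female 3 at 2 h, and 494.4 CPM in wild-type LPS small intestine mouse 8 at 24 h. Chrna7 had 3: 0.460 CPM in PBS colon male 4 and 7.21 CPM in LPS colon male 4 at 2 h, and 0 CPM in Gpr37-/- LPS small intestine mouse 10 at 24 h. Chrna4 had 3 at 24 h, all after LPS: 2.77 CPM in wild-type small intestine mouse 13, 0.660 CPM in Gpr37-/- small intestine mouse 21 and 0.268 CPM in Gpr37-/- colon mouse 2. Chrna5 had 0.902 CPM in Gpr37-/- PBS colon mouse 7, and Chrnb4 had 7.01 CPM in Gpr37-/- PBS small intestine mouse 7. The same mouse 7 gave the highest Chrna3 level of its colonic group, 127 CPM, and the lowest of its small-intestinal group, 9.66 CPM.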

How the results depend on the processing

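The counts of members called changed under these alternatives. For region over the 4 pairs of groups at 24 h (3 called), 0 were called with the mouse as a replicate block, 5 with limma voom and the mouse as a correlated block, 4 with DESeq2 and 4 with the mouse numbers as a covariate. For LPS over the 4 pairs of groups (3 called), 1 was called with the mouse numbers as a covariate, 1 in mice numbered 11 and above alone and 1 with limma voom, in each case Chrna4, while DESeq2 called 4 and leaving out the 2 colonic libraries of low Hox level gave 2. The call of Chrna5 held without each library in turn (1.88 to 3.31), and that of Chrnb4 was lost in 11 of 37 (0.79 to 1.39). DESeq2 called 1 member for LPS in wild-type colon, 1 for LPS in Gpr37-/- colon and 1 for region in Gpr37-/- LPS mice, where edgeR called 0. Leaving out 1 library at a time gave 0 to 1 members for LPS in Gpr37-/- colon and 0 to 1 for region over both treatments at 2 h. At 2 h the replicate block called 0 members in each of the 6 contrasts and so changed no call, and the replicate numbers there and in untreated mice were not taken as pairs. No called value changed its sign. Low counts limit Chrna4 and Chrna7, which were at 0 in 43 and 26 of 75 libraries.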
